A study of Gallus gallus with 6 samples.

Results

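Purine nucleotides, the ATP and GTP pools of a cell, are supplied by both de novo synthesis and salvage. In de novo synthesis the purine ring is built stepwise on phosphoribosyl pyrophosphate (PRPP) until inosine monophosphate (IMP) is reached, and IMP is then turned into AMP or GMP. In salvage, bases and nucleosides that are already present are converted back into nucleotides, which costs far less ATP. The genes described here are 9 enzymes of these routes among 16561 entries of a table of gene expression in chicken lens cells. They are the salvage genes PNP, HPRT1 and ADK, the de novo genes PPAT, GART, PAICS, ADSL and ATIC, and IMPDH2 of the GMP branch. Each gene was found as 1 entry by its symbol or alternate symbol, PAICS being listed as AIRC and IMPDH2 as IMPDH. PNP was chosen by its log2 fold change between these libraries, the largest of all tested genes, so its values are given as a description without a p-value. The other members were listed by their place in the pathway, with earlier results of these data known.

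The RNA-seq libraries came from White leghorn chick lenses at embryonic day 13, microdissected into lens epithelial cells (central and equatorial epithelium, 3 libraries) and lens fiber cells (peripheral and central fibers, 3 libraries). Each library is a biological replicate of pooled lenses without any treatment or genetic change. Epithelial cells are the anterior monolayer of the lens, and fiber cells are their elongated, differentiated descendants. Expression is given in FPKM, fragments scaled by transcript length and by the mapped fragments of each library, so that levels may be compared between genes. FPKM are relative to the rest of each library, and a comparison between libraries depends on their scaling. A value listed at 0.0001 FPKM stands for no detected transcript. FPKM carry no read counts, and the depth is therefore unknown.

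The cell types were compared by limma, a linear model fitted across genes, on log2(FPKM + 0.1). A mean of 0.5 FPKM or more over the 6 libraries was required, which 10818 entries reached. A gene was called where the Benjamini-Hochberg adjusted p was under 0.05 and the cell types differed by more than 0.4 on the log2 scale. The added 0.1 FPKM makes the log2 fold change of low genes smaller than that of their FPKM. All 9 genes passed the filter on low values. Across all tested genes the median difference was −0.62 on the log2 scale, and values relative to that median came from libraries centred on their medians. Of the 8 tested genes on a list of lens fiber markers (among them BFSP2, CRYGN and HSF4), 6 were called higher in fiber cells. All 8 genes tested from a list of lens epithelium markers (among them NOTCH2, MEIS1 and CDH1) were called lower. The shares of all tested genes were 13.1% higher and 57.7% lower. Relative to the median gene all 8 fiber markers were called higher and 7 epithelium markers lower (30.2% and 29.3% of all tested genes). CDH1 was then not called, at −0.09 (limma adjusted p = 0.363). In bulk RNA, fewer cells of a type and less RNA per cell cannot be told apart.

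Of the 9 purine genes, PNP (by its choice), HPRT1 and ADSL were called higher in fiber cells, against 13.1% of all tested genes. ADK, PPAT, GART, PAICS and ATIC were called lower, against 57.7% of all tested genes, and IMPDH2 was not called, while 70.8% of all tested genes were called in either direction. With median-centred libraries 4, again with PNP by its choice, were called higher (30.2% of all tested genes) and 3 lower (29.3%), where 59.4% of all tested genes were called. The libraries of the cell types did not overlap for 8 of the 9 genes, PNP among them by its choice. Such a lack of overlap applied to 79.7% of all tested genes (16.1% higher and 63.6% lower in fiber cells). The median log2 fold change of the 9 genes was −0.70, near that of all tested genes. The calls thus went in both directions within the list, and the genes are described by their role.

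PNP (ENSGALG00000044146) encodes purine nucleoside phosphorylase, which splits inosine and guanosine into the free base and ribose phosphate. PNP was at 0.606, 0.684 and 0.783 FPKM in the epithelial libraries and at 193, 232 and 181 FPKM in the fiber libraries. Its mean went from the lowest level of the 9 genes in epithelial cells (0.691 ± 0.0890 FPKM, SD, n = 3) to the highest in fiber cells (202 ± 26.6 FPKM, SD, n = 3), a ratio of 292. Among all 16561 entries PNP stood between rank 10460 and rank 10819 by level in the epithelial libraries and between rank 86 and rank 99 in the fiber libraries. Its log2 fold change was 7.995 (standard error, SE, 0.13), or 8.60 relative to the median gene. The next largest values over all tested genes were 7.81 for LGSN and 7.48 for HOPX.

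HPRT1 (ENSGALG00000006098) encodes hypoxanthine-guanine phosphoribosyltransferase, which joins the bases released by PNP to PRPP to give IMP and GMP. HPRT1 was at 10.4, 13.1 and 10.7 FPKM in the epithelial libraries and at 30.02, 28.0 and 30.1 FPKM in the fiber libraries. Every fiber library lay above every epithelial library, with a ratio of means of 2.58. The log2 fold change was 1.37 (SE 0.11, limma adjusted p = 1.49e-05).

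ADK (ENSGALG00000005057) encodes adenosine kinase, which phosphorylates adenosine to AMP without passing through a free base. ADK went the other way on the deposited scale, with 8.44, 8.56 and 8.09 FPKM in the epithelial libraries and 5.78, 4.501 and 5.10 FPKM in the fiber libraries. The log2 fold change was −0.70 (SE 0.11, limma adjusted p = 0.000598). This fall was close to that of the median gene, and with median-centred libraries the log2 fold change of −0.09 was not called (limma adjusted p = 0.422).

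**Figure D1:**
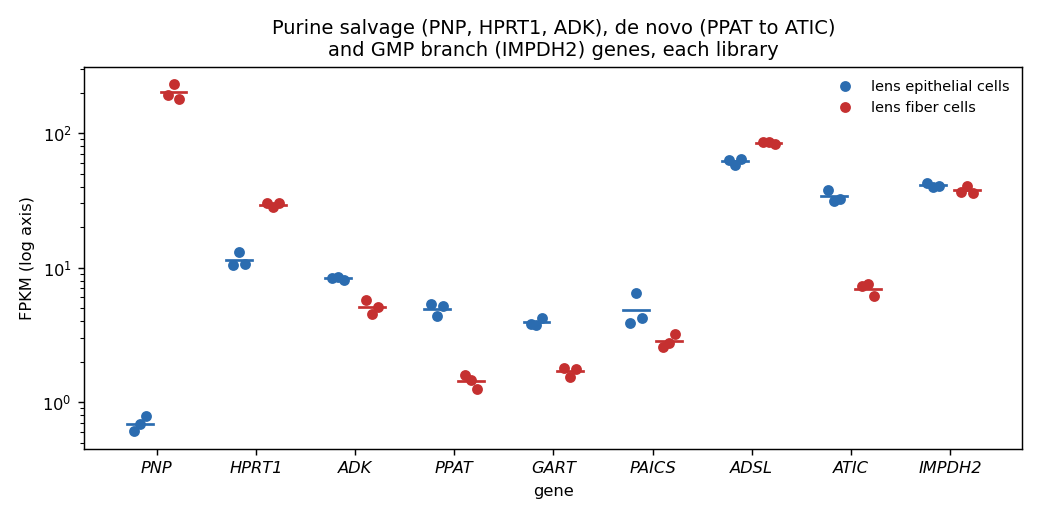
FPKM (log axis) of the 9 purine genes in each of the 3 epithelial (blue) and 3 fiber (red) libraries, with a bar at each mean. PNP stands at 0.783 FPKM or less in the epithelial libraries and at 181 FPKM or more in the fiber libraries, while ATIC and PPAT lie lower in all 3 fiber libraries and IMPDH2 overlaps.

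PPAT (ENSGALG00000013728) encodes amidophosphoribosyltransferase, which commits PRPP to purine synthesis and is the main regulated step. PPAT was at 5.34, 4.35 and 5.17 FPKM in the epithelial libraries and at 1.58, 1.46 and 1.25 FPKM in the fiber libraries. The groups did not overlap, and the mean was 3.45-fold lower in fiber cells. The log2 fold change was −1.72 (SE 0.14, limma adjusted p = 1.89e-05), and PPAT was also called lower relative to the median gene, at −1.11.

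GART (ENSGALG00000037076) encodes an enzyme with several activities that carries out several of the steps after PPAT, among them the first addition of a formyl group from folate. GART was at 3.79, 3.77 and 4.21 FPKM in the epithelial libraries and at 1.79, 1.54 and 1.78 FPKM in the fiber libraries. The fall of −1.16 on the log2 scale (SE 0.12, limma adjusted p = 6.53e-05) was also called relative to the median gene, at −0.55.

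PAICS (ENSGALG00000013726) encodes the enzyme that carboxylates the imidazole ring and adds aspartate to it. PAICS was at 3.86, 6.42 and 4.23 FPKM in the epithelial libraries and at 2.57, 2.73 and 3.19 FPKM in the fiber libraries. Epithelial replicate 2 stood above the other two, and the epithelial libraries varied by a coefficient of variation of 28.7%, the largest of the 9 genes in either cell type. The log2 fold change was −0.72 (SE 0.20, limma adjusted p = 0.00949). Without epithelial replicate 2 the call was kept and the log2 fold change was −0.50. Relative to the median gene it was −0.11 and was not called (limma adjusted p = 0.644). PAICS and PPAT are neighbors whose annotated spans overlap in the RefSeq annotation of GRCg7b, a later assembly than the galGal6 of these data. Their deposited values nevertheless differed. Within a library, PAICS minus PPAT on the log2 scale was −0.06 ± 0.54 (SD, n = 3) in epithelial cells and 0.93 ± 0.32 (SD, n = 3) in fiber cells, and the groups did not overlap.

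ADSL (ENSGALG00000012034) encodes adenylosuccinate lyase, which releases fumarate in de novo synthesis and again on the way from IMP to AMP. It belongs to the same enzyme superfamily as argininosuccinate lyase, the enzyme related to the δ-crystallin of bird lenses. ADSL was at 63.3, 58.3 and 64.2 FPKM in the epithelial libraries and at 85.3, 86.5 and 83.2 FPKM in the fiber libraries. It was the only one of the 5 de novo genes called higher in fiber cells, by 0.46 on the log2 scale (SE 0.07, limma adjusted p = 0.000681). The size lay close to the threshold of 0.4, and ADSL was no longer called when limma tested against 0.4 in place of 0 (adjusted p = 0.349). Relative to the median gene the log2 fold change was 1.06.

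ATIC (ENSGALG00000003570) encodes the bifunctional enzyme that adds the last formyl group and closes the ring to IMP. ATIC was at 37.7, 31.4 and 32.5 FPKM in the epithelial libraries and at 7.24, 7.52 and 6.15 FPKM in the fiber libraries. It had the largest fall of the 9 genes, 4.86-fold by the means, with a log2 fold change of −2.27 (SE 0.11, limma adjusted p = 2.63e-06) and −1.66 relative to the median gene. ADSL and ATIC catalyze consecutive steps and were the most abundant de novo transcripts in both cell types. Within a library, ADSL minus ATIC on the log2 scale was 0.87 ± 0.12 (SD, n = 3) in epithelial cells and 3.59 ± 0.12 (SD, n = 3) in fiber cells.

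IMPDH2 (ENSGALG00000006910) encodes inosine monophosphate dehydrogenase, which turns IMP toward GMP. IMPDH2 was at 42.5, 40.0 and 40.5 FPKM in the epithelial libraries and at 36.5, 40.5 and 35.9 FPKM in the fiber libraries. The groups overlapped, and the log2 fold change of −0.13 (95% interval −0.31 to 0.06, limma adjusted p = 0.182) was not called. Its direction depended on the scaling, as it was called higher relative to the median gene, at 0.48 (limma adjusted p = 0.00242). It stood at 0.10 without the δ-crystallin entries ASL1 and ASL2. For the 7 genes other than PNP whose libraries did not overlap, a two-sided exact permutation test gave p = 0.1 each, the smallest that 3 against 3 libraries allow, and for IMPDH2 it gave p = 0.3.

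In epithelial cells the order of mean levels was ADSL, IMPDH2, ATIC, HPRT1, ADK, PPAT, PAICS, GART and PNP. The libraries of neighbors in this order overlapped for PPAT and PAICS and for PAICS and GART. In fiber cells the order was PNP, ADSL, IMPDH2, HPRT1, ATIC, ADK, PAICS, GART and PPAT, with overlap between GART and PPAT. PNP moved from last to first, ATIC changed places with HPRT1, and PPAT became the lowest. The 5 de novo genes summed to 109.5 ± 4.90 FPKM (SD, n = 3) in epithelial cells and to 97.9 ± 2.12 FPKM (SD, n = 3) in fiber cells. ADSL made up 56.6% ± 1.45 of the de novo sum in epithelial cells and 86.8% ± 0.233 in fiber cells (SD, n = 3), while the share of ATIC went from 30.9% ± 1.94 to 7.11% ± 0.591 (SD, n = 3). The 3 salvage genes made up 11.96% ± 1.25 of the summed FPKM of the 9 genes in epithelial cells and 63.5% ± 1.65 in fiber cells (SD, n = 3). PNP alone held 54.1% ± 2.78 of that sum in fiber cells. HPRT1 and ADK together summed to 19.7 ± 1.65 FPKM in epithelial cells and to 34.5 ± 1.76 FPKM in fiber cells (SD, n = 3). Their share of the 9 genes was 11.6% ± 1.24 and 9.33% ± 1.13 (SD, n = 3), where the total of the fiber libraries includes the level of PNP.

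To set salvage against de novo synthesis, differences between genes were taken within each library, where the scaling between libraries cancels. The median log2 level of HPRT1 and ADK minus that of the 5 de novo genes was 0.80, 0.71 and 0.83 in the epithelial libraries and 2.32, 2.01 and 1.93 in the fiber libraries. The difference between the cell types was 1.30, and every fiber library lay above every epithelial library. The median of the 5 de novo genes was the level of PPAT or PAICS in the epithelial libraries and of PAICS in every fiber library. The size therefore depends on which de novo gene lies in the middle, and the single pairs are given below. With PNP included the difference was 2.77. The median salvage gene was then ADK in every epithelial library and HPRT1 in every fiber library. The value thus compares different genes, and PNP enters it only by moving from lowest to highest, for which it was chosen. These values describe chosen genes and carry no test.

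The single pairs showed that the shift belonged to HPRT1 more than to ADK. Of the 10 pairs of HPRT1 or ADK with a de novo gene, 8 were higher in all 3 fiber libraries, 1 was lower and 1 overlapped. Each pair restates the changes of its single genes, and no share over pairs of other genes was taken. The log2 fold change of HPRT1 was above that of 95.6% of all tested genes, and that of ADK above 46%. HPRT1 stood higher against each of the 5 de novo genes, and the gap moved most against ATIC. HPRT1 minus ATIC was −1.57 ± 0.30 (SD, n = 3) on the log2 scale in epithelial cells and 2.06 ± 0.20 (SD, n = 3) in fiber cells. HPRT1 minus PPAT was 1.18 ± 0.34 (SD, n = 3) on the log2 scale in epithelial cells and 4.27 ± 0.18 (SD, n = 3) in fiber cells. ADK stood higher against PPAT, GART and ATIC, overlapped against PAICS, and was lower against ADSL. ADK minus ADSL was −2.87 ± 0.11 (SD, n = 3) in epithelial cells and −4.03 ± 0.19 (SD, n = 3) in fiber cells. The pairs share genes and libraries and are not independent of each other.

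**Figure D2:**
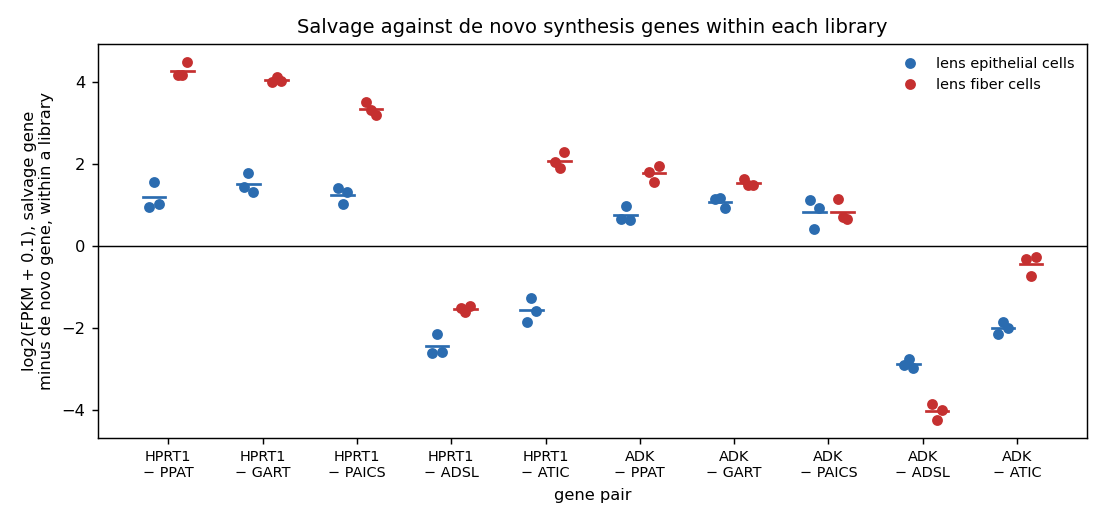
Difference of log2(FPKM + 0.1) between a salvage gene (HPRT1 or ADK) and a de novo gene within each library, for 10 pairs, in epithelial (blue) and fiber (red) libraries with a bar at each mean. All 5 HPRT1 pairs are higher in fiber cells, whereas ADK overlaps against PAICS and is lower against ADSL.

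Other salvage enzymes were examined to see whether the rise of PNP and HPRT1 extended to them. Of the 6 tested, fiber cells had 1 called higher and 5 called lower (13.1% and 57.7% of all tested genes). The median log2 fold change was −1.43. The gene called higher was ADA, whose enzyme deaminates adenosine to inosine, the substrate of PNP. ADA was at 3.31, 4.54 and 4.47 FPKM in the epithelial libraries and at 32.6, 38.2 and 37.1 FPKM in the fiber libraries, with a log2 fold change of 3.11 (SE 0.14, limma adjusted p = 1.7e-06). The groups were far apart compared with the spread within either. APRT, which salvages adenine directly, fell from 1.43 ± 0.305 to 0.554 ± 0.130 FPKM (SD, n = 3 each), a change of −1.23 on the log2 scale (limma adjusted p = 0.00128). The deoxynucleoside kinases DCK and DGUOK (listed as dAK) fell by 2.19 and 2.14 on the log2 scale. MTAP, which recovers adenine from methylthioadenosine, had a log2 fold change of −1.63, and ADAL, an adenosine deaminase-like enzyme, had −0.84. ADAL was not called relative to the median gene, while DCK, DGUOK, MTAP and APRT were called lower (29.3% of all tested genes). MTAP and ADAL have values identical to those of TRPM1 and TM2D3, so that their reads cannot be assigned to 1 gene.

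The genes that supply PRPP did not move together. PRPS2, a PRPP synthetase, fell from 9.15 ± 0.865 to 0.763 ± 0.185 FPKM (SD, n = 3 each), a change of −3.44 on the log2 scale (SE 0.17, limma adjusted p = 2.63e-06). PRPSAP1 and PRPSAP2 encode proteins associated with PRPP synthetase. PRPSAP1 rose from 3.75 ± 0.375 to 9.20 ± 0.144 FPKM (SD, n = 3 each), a change of 1.28 on the log2 scale (limma adjusted p = 1.79e-05). PRPSAP2 was much more abundant, at 95.1 ± 3.43 and 69.5 ± 1.24 FPKM (SD, n = 3 each), and its log2 fold change of −0.45 was called but turned to 0.16 relative to the median gene. PRPS1 and PFAS, which belong to the same list, were not analysed here.

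Among the enzymes that carry IMP on to AMP and GMP or interconvert them, 4 of the 5 tested were called lower and none higher. The shares of all tested genes were 57.7% and 13.1%. ADSS2, the adenylosuccinate synthetase that acts just before ADSL in the AMP branch, fell from 4.80 ± 0.186 to 1.01 ± 0.0654 FPKM (SD, n = 3 each), a change of −2.14 on the log2 scale (limma adjusted p = 4.18e-06). GMPS, which completes GMP after IMPDH2, had a log2 fold change of −1.04 (limma adjusted p = 0.000404). The entry listed as GMPR with the alternate symbol GMPR2, a GMP reductase, had −1.92, and AMPD2, an AMP deaminase, had −1.79. The 4 genes were also called lower relative to the median gene (29.3% of all tested genes). ADSS1, the other adenylosuccinate synthetase, was at 3.93 ± 0.684 and 7.04 ± 4.2 FPKM (SD, n = 3 each) and was not called (log2 fold change 0.69, limma adjusted p = 0.103). However, ADSS1 was called higher with median centring, with quantile normalization, without the δ-crystallin entries and with a replicate block. Fiber replicate 3 stood apart at 11.9 FPKM, and without it the log2 fold change was 0.24. Its values are identical to those of SIVA1. AMPD1 and AMPD3 were below the filter, and IMPDH1 was not analysed here.

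Of the 7 tested genes on a list of purine breakdown and nucleotide sanitation enzymes, 2 were called higher and 4 lower. The shares of all tested genes were 13.1% and 57.7%, and the count called lower was near its share. NT5C2, a cytosolic nucleotidase that prefers IMP and GMP and gives the nucleosides that PNP splits, was at 4.55, 4.82 and 6.36 FPKM in the epithelial libraries and at 84.5, 93.3 and 93.0 FPKM in the fiber libraries. Its log2 fold change was 4.09 (SE 0.13, limma adjusted p = 5.8e-07). NT5C3A, a nucleotidase that in humans prefers pyrimidine nucleotides, rose by 1.38 on the log2 scale (limma adjusted p = 1.66e-05). NT5C3B and NUDT5 had log2 fold changes of −1.04 and −1.65. Relative to the median gene 3 of the 7 were called higher and 1, NUDT5, lower (30.2% and 29.3% of all tested genes). NT5C3B has values identical to those of KLHL11. XDH, the xanthine dehydrogenase that makes uric acid from hypoxanthine and xanthine, was listed at 0.0001 FPKM in all 6 libraries. GDA (guanine deaminase) was at 0.0001, 0.119 and 0.0001 FPKM in the epithelial libraries and at 0.0001 FPKM in every fiber library, so the groups overlapped.

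**Figure D3:**
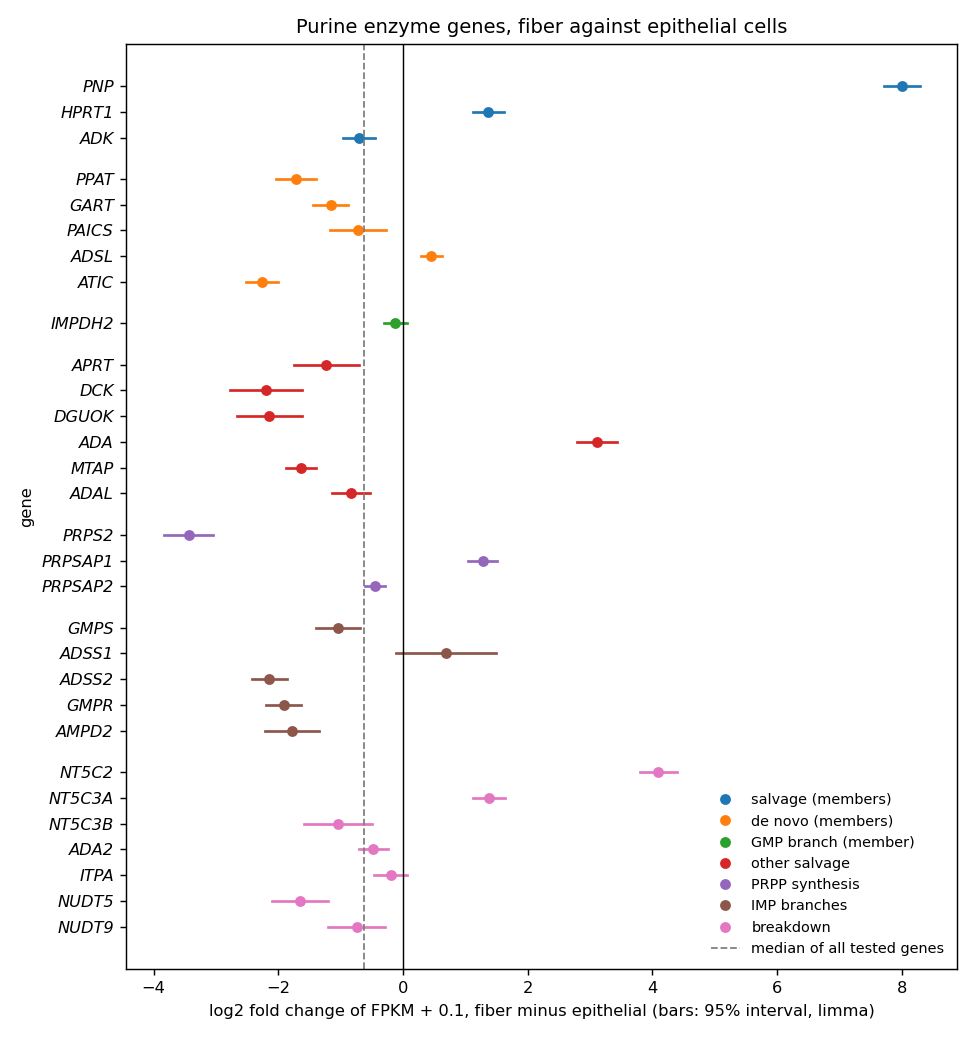
Log2 fold change (fiber minus epithelial, on log2(FPKM + 0.1)) with 95% limma intervals for the tested purine genes, colored by role, with a dashed line at the median of all tested genes (−0.62). PNP, NT5C2, ADA, NT5C3A, HPRT1 and PRPSAP1 lie above 1, and PRPS2, ATIC, DCK, DGUOK and ADSS2 lie below −2.

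NT5C2 releases inosine from IMP, ADA makes inosine from adenosine, PNP splits inosine, and HPRT1 returns the hypoxanthine to IMP. These 4 genes were set beside each other and beside pyrimidine genes after their values were seen, so the grouping is a description. UPP1, the uridine phosphorylase that is the pyrimidine counterpart of PNP, was at 0.384, 0.527 and 0.371 FPKM in the epithelial libraries and at 18.2, 23.0 and 20.2 FPKM in the fiber libraries. Its log2 fold change was 5.29 (SE 0.15, limma adjusted p = 4.25e-07). UCK2, UCKL1 and UPRT, named for uridine kinase and uracil phosphoribosyltransferase activities, rose by 1.25, 1.40 and 1.04 on the log2 scale. UCK1, also named for uridine kinase activity, went the other way, at −0.99 (limma adjusted p = 0.0246), and was not called relative to the median gene. Its fiber libraries were at 3.49, 1.24 and 3.10 FPKM, fiber replicate 2 standing apart, against 4.87 ± 0.187 FPKM (SD, n = 3) in epithelial cells. TK1 and DCTD, which serve the supply of thymidine nucleotides, fell by 3.72 and 2.05 on the log2 scale. Of the 10 tested genes of pyrimidine salvage and breakdown, 4 were called higher and 5 lower (4 and 3 relative to the median gene). From the 4 tested genes of pyrimidine synthesis (DHODH, UMPS, CTPS1 and CTPS2) 3 were called lower and none higher (2 and none relative to the median gene). The shares of all tested genes were 13.1% higher and 57.7% lower (30.2% and 29.3% with median-centred libraries). DHODH had a log2 fold change of −1.89 and UMPS of −1.06.

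**Figure D4:**
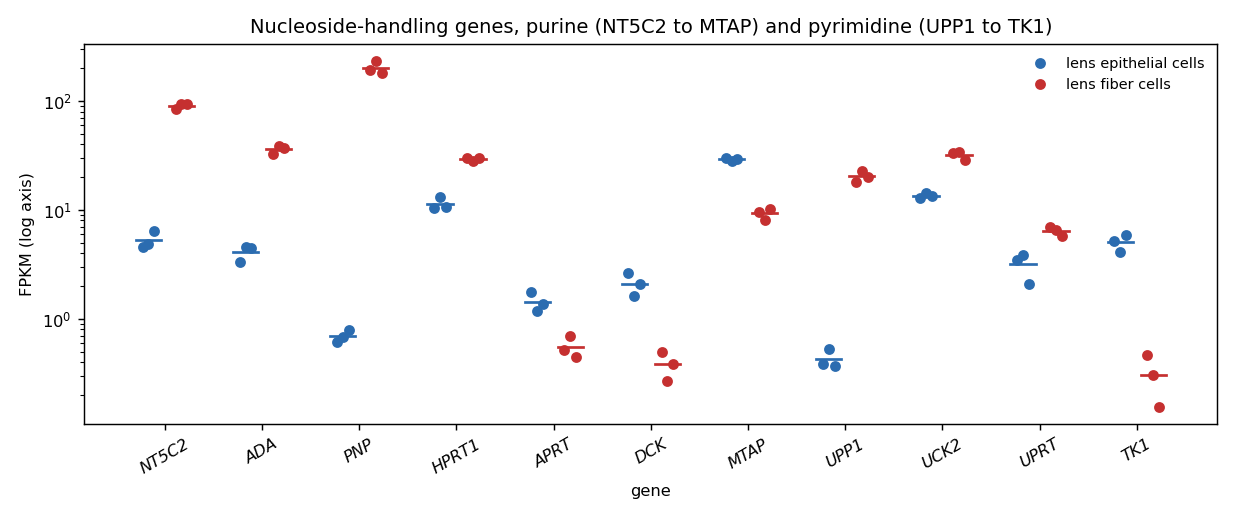
FPKM (log axis) of 11 nucleoside-handling genes, chosen after their values were seen, in each epithelial (blue) and fiber (red) library with a bar at each mean. NT5C2, ADA, PNP, HPRT1, UPP1, UCK2 and UPRT are higher in all 3 fiber libraries, and APRT, DCK, MTAP and TK1 are lower.

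De novo purine synthesis takes its formyl groups from folate. Of the 16 tested genes of one-carbon and folate metabolism, 10 were called lower, against 57.7% of all tested genes, and none higher, and their median log2 fold change was −0.82. MTHFD1L and GLDC had the largest falls, of −1.58 and −1.43. The direction of this list depended on the scaling, as 6 genes were called higher and 6 lower relative to the median gene. With median-centred libraries 30.2% of all tested genes were called higher and 29.3% lower. MTHFD1L has values identical to those of PLEKHG1. Among nucleotide kinases, which raise mono- and diphosphates to triphosphates, 8 of 12 tested genes were called lower, also near the share of all tested genes, and GUK1 was called higher at 0.51 (limma adjusted p = 0.0149). The call of GUK1 was lost without epithelial replicate 2 (0.43) and without fiber replicate 1 (0.40). NME1, a nucleoside diphosphate kinase, had the largest fall at −2.89. Relative to the median gene, 2 of the 12 were called lower and 1 higher (29.3% and 30.2% of all tested genes).

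Of 12 tested genes of nucleoside transport, extracellular nucleotide hydrolysis and adenosine reception, 10 were called lower under both scalings. The shares of all tested genes, to be set beside each list of this paragraph, were 57.7% as deposited and 29.3% with median-centred libraries. The adenosine receptor genes ADORA2A and ADORA2B went in opposite directions, with log2 fold changes of −3.35 (limma adjusted p = 7.93e-06) and 1.39 (limma adjusted p = 0.0111). ADORA2A went from 2.93 ± 0.0525 to 0.204 ± 0.0807 FPKM and ADORA2B from 0.636 ± 0.344 to 1.66 ± 0.267 FPKM (SD, n = 3 each). For ADORA2B, epithelial replicate 1 stood apart at 0.240 FPKM against 0.858 and 0.810 FPKM, and without it the log2 fold change was 0.90 and still called (limma adjusted p = 0.00527). Without a filter on low values ADORA2B was not called (limma adjusted p = 0.0611). SLC28A3, a concentrative nucleoside transporter that was below the filter, was listed at 0.0001 FPKM in all 3 epithelial libraries and at 0.784, 0.638 and 0.728 FPKM in the fiber libraries. It was singled out after its values were seen. ENTPD2, a surface enzyme that hydrolyzes ATP, fell by 2.80 on the log2 scale. On a list of deoxynucleotide genes, which also holds genes of thymidine nucleotides and of breakdown, 7 of 8 tested were called lower under both scalings. Their median was −2.24, with RRM2 (ribonucleotide reductase) at −4.43. On a list of proliferation genes 13 of 14 were called lower under both scalings, with a median of −2.78, MCM3 and PLK1 having the largest falls. CDC20 was the exception, called higher at 1.63.

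**Figure D5:**
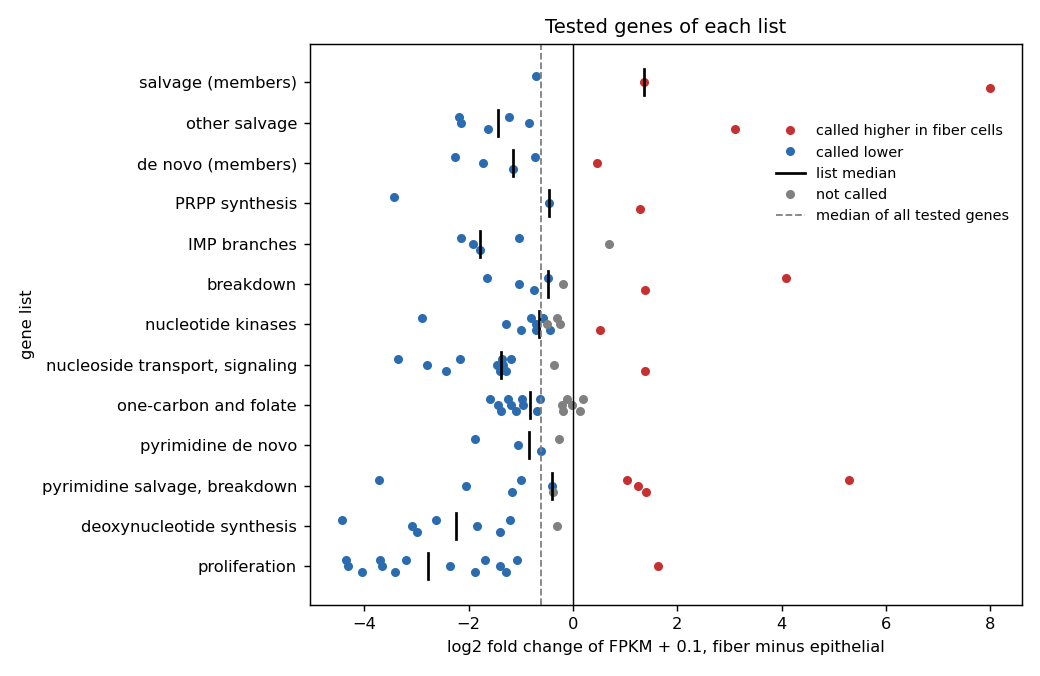
Log2 fold change (fiber minus epithelial) of the tested genes on the lists of purine (without IMPDH2), pyrimidine, folate, deoxynucleotide and proliferation genes. The lists of nucleotide kinases and of nucleoside transport and signaling are also drawn. A bar stands at each list median and a dashed line at the median of all tested genes (−0.62). Red, blue and grey points were called higher, called lower and not called. The lists of deoxynucleotide genes (labeled deoxynucleotide synthesis) and proliferation lie lowest, at medians of −2.24 and −2.78.

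Markers of other cell types were read beside PNP, since some hemoglobin genes were also higher in fiber cells. The summed level of the erythrocyte list was 1.68 to 2.13 FPKM in the epithelial libraries and 8.73 to 14.8 FPKM in the fiber libraries, against 181 to 232 FPKM of PNP in the latter. HBZ was at 6.51 ± 1.12 and HBAA at 4.28 ± 2.20 FPKM in fiber cells (SD, n = 3 each), 2 of the 3 tested genes of the list. Their epithelial means were 0.0259 and 0.0531 FPKM, and both were called higher in fiber cells. HBAD, below the filter, was at 0.0317 FPKM in epithelial cells and at 0.679 FPKM in fiber cells. HBBA overlapped between the cell types, at 0.0273 and 0.0336 FPKM, with values identical to those of HBE1, and the entries of HBBR and HBE were listed at 0.0001 FPKM in all 6 libraries. EPB42, the third, was called lower, from 1.77 ± 0.170 to 0.569 ± 0.217 FPKM (SD, n = 3 each). It supplied most of the epithelial sum of the list. SLC4A1 and TAL1 stood at no more than 0.0365 and 0.0249 FPKM in any library, and for both the cell types overlapped. RHAG was listed at 0.0001 FPKM in all 6 libraries. Of the 15 genes of the list, 9 were matched. The part of erythrocytes in the level of PNP was not tested. The summed levels of the immune, connective tissue and pigment cell lists were lower in every fiber library than in every epithelial library, at 2.63 to 3.49 against 7.11 to 9.28 FPKM, 14.3 to 17.5 against 57.8 to 69.2 FPKM and 0.638 to 0.888 against 2.34 to 5.82 FPKM. Of all tested genes 57.7% were called lower and 13.1% higher, to be set beside the calls on each of these short lists. Both tested immune genes and 1 of 2 tested pigment genes were called lower, and of 3 tested connective tissue genes PDGFRA was called lower and DCN higher. Their part in the falls of the de novo genes was not tested. PDGFRA, on the connective tissue and the lens epithelium lists, supplied most of the connective tissue sum.

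Among 9133 tested entries with values of their own, 235 had a Pearson correlation above 0.99 with PNP over the 6 libraries. The 5 closest were AIFM1, DDB2, STAMBPL1, CHAC2 and PGAP2, with r between 0.9996 and 0.9999. Their mean FPKM in epithelial and fiber cells were 19.9 and 40.8 for AIFM1, 2.20 and 13.1 for DDB2, 1.53 and 63.9 for CHAC2, 2.83 and 62.2 for STAMBPL1, and 6.78 and 38.8 for PGAP2. All were higher in fiber cells, and such correlations over 6 libraries in 2 groups follow mostly from the difference between the cell types.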

How the data were processed

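Lens epithelial and fiber cells were each measured by RNA-seq in 3 biological replicates. Per the authors, total RNA was extracted with TRIZOL and sequenced from stranded libraries. The authors removed adapters with Cutadapt, aligned reads to galGal6 using Bowtie2 and HISAT2, and assembled and quantified transcripts using StringTie and edgeR. The deposited FPKM values are listed per library, with 0.0001 for no detected transcript. The deposited table also holds the authors' fold change (a ratio of means), its log2 value, p-values and q-values, none of which was used.

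Log2(FPKM + 0.1) were fitted with limma 3.58.1 (R 4.3.3), trend on, for the 10818 of 16561 entries that reached a mean of 0.5 FPKM. Benjamini-Hochberg adjustment ran over all of these. The fit was tested on simulated data in which few genes changed and the libraries shared a scale, so that test does not cover the scaling between libraries. Members and gene lists were chosen with earlier results of these data known. Genes were matched by symbol or alternate symbol, and the entry of DFFB, which carries CAD as an alternate symbol of the nuclease, was not used as the CAD of pyrimidine synthesis. Genes named are the 9 members, the measured genes of the salvage, PRPP and IMP branch lists, the 2 highest and 2 lowest called genes of other lists and the 5 genes closest to PNP, and any other named gene was chosen after its values were seen. Alternatives changed the pseudocount (1 or 0.01), the filter (none, or a mean of 1 FPKM), the scaling, the trend, the null hypothesis or the block, or left out 1 library. Gene neighbors were read from the RefSeq table of GRCg7b, and no sequence is shown. The depth of the libraries is unknown, so precision rests on the replicates alone.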

Additional observations from a re-analysis of the deposited data

How the results depend on the processing

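FPKM are relative within a library, so the scaling between libraries was the choice that moved most. The count of purine genes called lower went from 5 to 3 with median centring and with quantile normalization. Over all tested genes, the number called higher was 1415 as deposited, 3263 with median centring and 2884 with quantile normalization, and the number called lower was 6240, 3167 and 3228. ADK and PAICS lost their calls under both scalings, and PAICS also without the δ-crystallin entries (adjusted p = 0.0525) and when limma tested against 0.4 (adjusted p = 0.119). IMPDH2 turned to 0.48 with median centring and to 0.10 without the δ-crystallin entries, but stayed negative, at −0.05, with quantile normalization. The entries left out were ASL1 and ASL2, while GUSB, which has values identical to theirs, was kept. The δ-crystallin values were thus not wholly removed, and leaving out GUSB as well was not tried. AK3 turned to 0.18 and 0.20 with median centring and quantile normalization, PRPSAP2 to 0.16 with median centring, and CTPS2, FPGS and MTHFD2L to 0.25, 0.14 and 0.35 with quantile normalization. The cause was not tested. A pseudocount of 1 gave 1.14 for salvage against de novo synthesis and 2.49 with PNP. HPRT1, PPAT, GART and ATIC kept their calls under every alternative run. PNP did so too, but it was chosen by its log2 fold change in these libraries, so its calls add no support. With each library left out in turn all 8 calls among the 9 genes, that of PNP included, were kept. Among the 71 genes compared across the alternatives, AK3, FPGS, GUK1 and MTHFD2L each lost their call without at least 1 library. Some genes named after their values were seen, such as UCK1, were not among the 71.

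Libraries of the same replicate number deviated together only weakly (r = 0.086, 0.066 and 0.067), each being closest to its own number, and nothing states what a number marks. With a replicate block, 3 members were called higher and 5 lower, as without it. Among the 71 genes compared across the alternatives only ADSS1 changed, to a call (0.69, limma adjusted p = 0.0354).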
